A study of Mus musculus with 3 samples.

Results

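Of the 50032 autosomal peaks that stood at a level of 0.8 or more in control_D1, 12407 were overlapped by no peak of control_D0, and 2072 of these gained peaks, or 16.7%, were also overlapped by a peak of Seh1cKO_D1. Over all 50032 peaks the share with a Seh1cKO_D1 peak was 63.2%. These 2072 shared gained peaks are described here. The level is the pileup, the number of fragments over a peak's summit, scaled to 1000000 fragments of the library, in fragments per 1000000 (FPM). A peak was a member when it met this floor, shared no base with a control_D0 peak and shared at least 1 bp with a Seh1cKO_D1 peak. The members were thus chosen by the calls of all 3 libraries and selected on the level in control_D1, so the levels and calls below are descriptions.

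Chromatin was profiled by ATAC-seq, in which a transposase tags open DNA, in oligodendrocyte progenitors immunopanned from cortices of C57BL/6 mice of postnatal day 4 to 7. Seh1cKO_D1 cells carried the genotype Seh1cKO and had been cultured for 1 day with 60 nM triiodothyronine (T3) and without PDGF-AA, bFGF and NT3. Control_D1 cells were wild type and had the same day of culture, and control_D0 cells were wild type and are read here as cells of day 0, the progenitor stage, since their title ends in the letters DO. All 3 groups had B-27, N2 and CNTF in the medium, per the labels' protocols, and the Cre driver, the deleted part of Seh1l, and the number of animals are not given in the sources used here. Because T3 was added as the 3 growth factors were withdrawn, a gain between the control stages cannot be assigned to T3 alone: both changes cannot be told apart.

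Each group had 1 library, so no difference between groups has a replicate check and no test was made. The Seh1cKO_D1 library held 10845533 fragments and 46113 peaks, the control_D1 library 18260883 fragments and 118441 peaks, and the control_D0 library 23403600 fragments and 108788 peaks. The lowest level called was 0.553 FPM in Seh1cKO_D1 (6 fragments), 0.438 FPM in control_D1 and 0.385 FPM in control_D0. A site without a call may therefore be open below that level. The Seh1l gene on chromosome 18, with 1000 bp on either side, had 1 peak in each library, at 4.33 FPM in Seh1cKO_D1, 3.83 in control_D1 and 3.29 in control_D0, which does not check the deletion. Gene ends (1000 bp on either side) held a peak for 24, 26 and 26 of 30 progenitor genes in Seh1cKO_D1, control_D1 and control_D0, and for 5, 8 and 9 of 22 microglia and macrophage genes. They did so for 9, 13 and 11 of 24 genes of endothelial and mural cells, for 14, 16 and 14 of 20 astrocyte genes and for 14, 21 and 18 of 24 neuronal genes. These counts do not set progenitors apart from astrocytes or neurons.

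Thyroid hormone acts through nuclear receptors that bind DNA, mostly as pairs with retinoid X receptors, and that exchange corepressors for coactivators when the hormone is bound. In oligodendrocyte progenitors the hormone promotes the exit from the cell cycle and the start of myelin gene expression, while basic helix-loop-helix factors such as Olig2 bind E-boxes at lineage genes. Seh1, encoded by Seh1l, is a subunit of the Y complex of the nuclear pore, and promoters rich in CpG dinucleotides tend to be open in most cell types, whereas distal elements tend to differ between them.

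Among the shared gained peaks, 141 RefSeq promoters of 125 genes were overlapped. A promoter here is the 250 bases before an annotated start, and sequences come from the RefSeq table of build GRCm38.p6, which shares its chromosome coordinates with mm10. 5 of them are shown because the named members lie over them: the members at Pqlc3 and Gm40035 were among the highest at gene ends, and Rxrg, Gfap and Abcc9 belong to the gene lists described below. Capitals mark the E-box CANNTG and the nuclear receptor half-site AGGTCA, each searched on both strands, so that TGACCT is the half-site on the opposite strand. Rxrg, chr1:167618015-167618264 on the plus strand, lies before a start inside the gene of a retinoid X receptor and holds a half-site that overlaps an E-box, and a further E-box. Gm40035, chr2:181953193-181953442 on the minus strand, is a predicted protein-coding gene whose promoter holds a half-site in each orientation. Gfap, chr11:102897201-102897450 on the minus strand, encodes an intermediate filament protein of astrocytes and its promoter lies wholly inside the member. Abcc9, chr6:142702275-142702524 on the minus strand, encodes a subunit of a potassium channel of mural cells. Pqlc3, chr12:17000119-17000368 on the minus strand, lies wholly inside its member and holds neither motif.
Rxrg: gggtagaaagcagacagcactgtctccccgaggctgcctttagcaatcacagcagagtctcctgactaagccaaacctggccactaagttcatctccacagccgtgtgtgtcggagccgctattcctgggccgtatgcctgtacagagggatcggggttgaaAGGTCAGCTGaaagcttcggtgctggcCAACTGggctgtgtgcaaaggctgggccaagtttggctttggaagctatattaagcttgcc
Gm40035: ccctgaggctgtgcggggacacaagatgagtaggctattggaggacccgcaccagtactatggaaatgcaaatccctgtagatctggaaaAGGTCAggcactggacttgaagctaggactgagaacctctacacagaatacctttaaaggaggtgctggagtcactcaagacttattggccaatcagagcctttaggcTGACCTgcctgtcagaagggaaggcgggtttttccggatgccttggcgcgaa
Gfap: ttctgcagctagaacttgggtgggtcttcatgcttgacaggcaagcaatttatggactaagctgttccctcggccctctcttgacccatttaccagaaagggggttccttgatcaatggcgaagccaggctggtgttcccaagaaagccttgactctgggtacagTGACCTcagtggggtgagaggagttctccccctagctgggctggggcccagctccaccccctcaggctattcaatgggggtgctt
Abcc9: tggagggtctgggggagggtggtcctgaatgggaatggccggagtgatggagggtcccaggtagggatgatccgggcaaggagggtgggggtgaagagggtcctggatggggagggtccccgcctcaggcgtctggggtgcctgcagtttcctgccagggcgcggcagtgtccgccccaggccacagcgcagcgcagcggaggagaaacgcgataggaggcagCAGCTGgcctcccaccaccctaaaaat
Pqlc3: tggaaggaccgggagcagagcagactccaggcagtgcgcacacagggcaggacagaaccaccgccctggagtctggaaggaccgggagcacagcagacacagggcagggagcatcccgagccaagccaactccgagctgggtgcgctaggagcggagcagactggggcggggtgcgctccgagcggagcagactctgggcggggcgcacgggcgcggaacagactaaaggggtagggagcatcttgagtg

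The half-site was found in 10 of the 141 promoters over a member (7.09%) and in 31 of 207 over a gained peak without a Seh1cKO call (14.98%). It was found in 1000 of 11368 promoters over a peak called in all 3 libraries (8.80%) and in 14.0% of all 32814. The E-box was found in 80 of the 141 (56.7%) and in 64.3% of those over a gained peak without a call. Over peaks called in all 3 its share was 54.1%, and over all promoters 66.2%. Of the classes compared, both motif shares over members lay nearest to those over peaks called in all 3. No interval was computed for these shares, so a likeness to 1 class is not shown. Overlapping promoters can hold the same match, as those of Gfap and Gm34560 do, so promoters are not independent. A match is a description of these letters and not a site of binding. The median GC content was 60.4% over members, 54.4% over gained peaks without a call, 62.0% over peaks called in all 3 libraries and 47.2% where no library had a peak. The ratio of observed to expected CpG was 0.601, 0.460, 0.778 and 0.204 in the same order. A ratio over 0.6 was found in 71 of 141 promoters over members (50.4%), against 32.4% over gained peaks without a call and 75.9% over peaks called in all 3. The promoters over members thus lay between both other classes in CpG content.

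The shared gained peaks were mostly weak in both day 1 libraries. In Seh1cKO_D1 their levels ranged from 0.553 to 10.2 FPM with a median of 0.922 and quartiles of 0.738 and 1.11, and in control_D1 they ranged from 0.821 to 5.48 with a median of 1.04 and quartiles of 0.931 and 1.37. The median ratio of Seh1cKO_D1 to control_D1 was 0.842, or −0.25 on the log2 scale (95% interval of the median −0.32 to −0.25, which covers counting over members only). Most Seh1cKO calls were close to the caller's limit: 1578 members (76.2%) rested on 6 to 12 Seh1cKO fragments, against 26.5% of the 29538 peaks called in all 3 libraries. The Seh1cKO library had 59.4% of the fragments of control_D1, so 15 control fragments, the lowest number at the floor, correspond to 8.91 at its depth.

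In Seh1cKO_D1 548 members (26.4%) were at least 1.5-fold lower than in control_D1, and 128 (6.18%) were at least 1.5-fold higher. Over all 31610 peaks with a Seh1cKO call these shares were 26.6% and 6.53%, and over the peaks called in all 3 libraries 26.6% and 6.55%. The members' shares thus lay at the unmatched background. Peaks called in all 3 stood higher in control_D1, at a median of 2.08 FPM against 1.04 for members. Matched to the members on control level, 13.0% of them were lower and 12.6% higher, with a weighted median of −0.03 on the log2 scale. Matched on width, the shares were 23.1% and 9.90%. At matched control level members were more often lower and less often higher than peaks called in all 3. The control_D1 level entered the rule, the matching and the ratio, and the classes were split by the control_D0 call. This contrast is thus a description, and the part of the selection in it was not tested. When levels were scaled so that the median ratio over peaks called in all 3 libraries, 0.873 before scaling, was 1 (a shift of −0.20 on the log2 scale), 342 members (16.5%) were lower and 225 (10.9%) higher, against 18.4% and 12.6% of all peaks with a call. The members' median was then −0.05 on the log2 scale. With Seh1cKO peaks limited to a −log10 q of 5 or more the balance turned, to 7.63% lower and 20.4% higher with a median of 0.20 on the log2 scale, and with a floor of 1.2 FPM 54.0% were lower and 2.04% higher.

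The level in Seh1cKO_D1 changed little along the range of control_D1 levels. The median Seh1cKO level was 0.830 FPM for the 891 members at 0.8 to 1 in control_D1, 0.922 for the 496 in the next bin and 1.01 for the 328 in the bin that ends at 1.5. It was 0.922 for each of the higher bins, which held 234 members at 1.5 to 2, 96 at 2 to 3 and 27 at 3 and over. The median ratio of Seh1cKO_D1 to control_D1 was accordingly 0.947, 0.822, 0.732, 0.561, 0.416 and 0.248 from the lowest to the highest bin. Peaks called in all 3 libraries had median ratios of 1.09, 0.975, 0.879, 0.842, 0.808 and 0.823 in the same bins, and their Seh1cKO level went with the control level, up to a median of 3.69 FPM in the highest bin. That bin is open at the top, and its median control level was 3.56 FPM for members and 4.44 for peaks called in all 3.

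**Figure D1:**
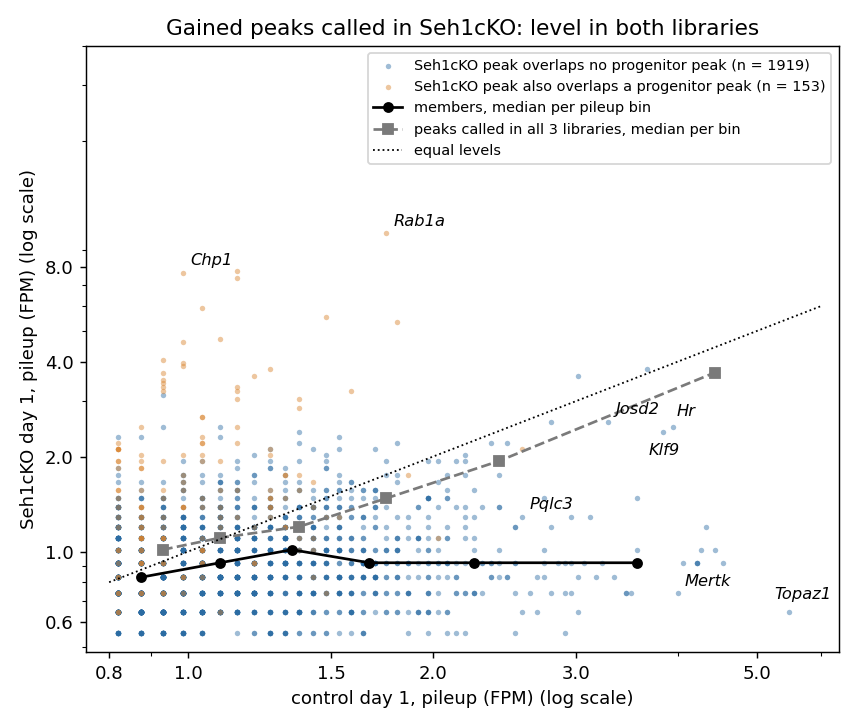
Pileup in FPM of each of the 2072 shared gained peaks in Seh1cKO_D1 (vertical, log scale) and in control_D1 (horizontal, log scale), with medians per bin of the control level for members (black) and for peaks called in all 3 libraries (grey squares). Orange points are the 153 members whose Seh1cKO peak also overlaps a control_D0 peak, and they include Chp1 and Rab1a at the top. The members' medians stay between 0.830 and 1.01 in Seh1cKO_D1, while those of the peaks called in all 3 reach 3.69.

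Of the 27 members at 3 FPM or more in control_D1, 25 were lower in Seh1cKO_D1, and 5 reached 2 FPM there, against 7880 of 9403 peaks called in all 3 libraries (83.8%). This cut was chosen after the values were seen. The 5 were nearest to Gm20783, Sfi1, Josd2, Hr and Klf9. The members in Gm20783, at 3.78 FPM in Seh1cKO_D1 and 3.67 in control_D1, and in Sfi1, at 3.60 and 3.01, stood only 2.42-fold and 1.90-fold over their local background in control_D1 by the authors' deposited values. Their Seh1cKO summits lay outside the member.

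The 12 members highest in control_D1 included peaks near 2 genes of the thyroid hormone list, Hr and Klf9. The member 1459 bp from Hr (mm10 chr14:70551762-70552597), which encodes a corepressor of nuclear receptors and is induced by thyroid hormone in brain, had 2.49 FPM in Seh1cKO_D1 (27 fragments) and 3.94 in control_D1 (72 fragments), a ratio of 0.631 (exact 95% interval for counting error 0.390 to 0.995). The member 5034 bp from Klf9 (chr19:23135530-23136192), which encodes a zinc finger factor induced by the hormone, had 2.40 FPM in Seh1cKO_D1 (26 fragments) and 3.83 in control_D1 (70 fragments), a ratio of 0.625 (0.383 to 0.994). Both intervals end just under 1 and include 0.873, the median ratio of peaks called in all 3 libraries. The nearest control_D0 peak lay 1654 bp from the member at Hr and 227 bp from the one at Klf9, which would be no member if none were allowed within 500 bp. A further member inside Klf9 had 0.922 FPM in Seh1cKO_D1 and 1.70 in control_D1. The member over an annotated start inside Rxrg, printed above, stood at the lower limit, with 6 fragments (0.553 FPM) in Seh1cKO_D1 and 15 (0.821 FPM) in control_D1.

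The other 10 of these 12 had between 7 and 13 Seh1cKO fragments. The highest control_D1 level was that of a peak 105352 bp from its nearest protein-coding gene, Topaz1 (chr9:122641267-122641847), with 0.645 FPM in Seh1cKO_D1 and 5.48 in control_D1, a ratio of 0.118 (0.0462 to 0.252). A peak 17866 bp from Tcf7l2 (chr19:55951525-55951958), a Wnt pathway factor needed for oligodendrocyte differentiation, had 0.922 in Seh1cKO_D1 and 4.22 in control_D1. Peaks inside Mme, which encodes the peptidase neprilysin, and inside Lrrc1, which encodes a scaffold protein of the cell cortex, had the same pair of levels. The peak inside Ppargc1a, which encodes a coactivator of mitochondrial biogenesis, had 0.922 and 4.05. These 4 ratios ran from 0.219 to 0.228, and the upper ends of their intervals reached at most 0.442.

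Inside Znrf1, an E3 ubiquitin ligase gene, a member had 0.922 FPM in Seh1cKO_D1 and 4.55 in control_D1, and a second one had 0.738 and 3.51. Mertk, a receptor tyrosine kinase gene with a role in phagocytosis, had 0.738 in Seh1cKO_D1 and 4.00 in control_D1. The peak inside Rnf150, a RING finger gene, had 1.01 and 4.44, the one inside Slc35f3, a solute carrier gene, 1.199 and 4.33, and the one 302866 bp from Hdgfl1 1.01 and 4.27. All 6 were thus high in control_D1 and stood at 0.738 to 1.199 in Seh1cKO_D1, where the members' median was 0.922 with quartiles of 0.738 and 1.11. The 6 lowest ratios also held a member 40660 bp from Olig2 (chr16:91184319-91184890), at 0.553 in Seh1cKO_D1 and 2.90 in control_D1, and one inside Ctnnd2, which encodes delta-catenin, at 0.738 and 3.45. The last was tied with a member inside Hc, a complement gene, with the same 8 and 63 fragments. Since these peaks were ranked by the control level or the ratio, their values carry no test.

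The 6 highest ratios were a different kind of peak. The member at Chp1 (chr2:119548100-119548224) had 7.65 FPM in Seh1cKO_D1 (83 fragments) and 0.986 in control_D1 (18 fragments), the one at Hexim1, an inhibitor of the elongation factor P-TEFb, 7.75 and 1.15, and the one at Ddx50, an RNA helicase gene, 7.38 and 1.15. The member at Rab1a (chr11:20201813-20201932), a GTPase of transport from the endoplasmic reticulum, had 10.2 and 1.75, the one at Cstf1, which encodes a subunit of the mRNA cleavage factor and lies beside Aurka, 5.90 and 1.04, and the one at Abi1, a regulator of actin assembly, 4.61 and 0.986. These members were 100 to 188 bp wide and overlapped a Seh1cKO peak of 602 to 1251 bp whose summit lay outside the member. In each of the 6 the Seh1cKO peak also overlapped a control_D0 peak, 60 to 187 bp from the member. The Seh1cKO level is then that of a wider peak beside the gained one.

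Such a bridge, a Seh1cKO peak that overlaps a member and a control_D0 peak, was found at 153 members (7.38%, exact 95% interval 6.29 to 8.60%). Their median ratio of Seh1cKO_D1 to control_D1 was 1.37, and 66 of them were among the 128 members at least 1.5-fold higher in Seh1cKO_D1. The other 1919 members had a median ratio of 0.798, with 62 at least 1.5-fold higher and 544 lower. At 1709 members (82.5%) the Seh1cKO summit lay inside the member, at a median of 53 bp from the control_D1 summit, and 1296 of these pairs of summits (75.8%) lay within 100 bp. A single Seh1cKO peak overlapped 2029 members, and 43 members were overlapped by 2.

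The members were intermediate in width. Their median width in control_D1 was 323.5 bp (95% interval 315 to 333 bp, quartiles 234 and 438 bp, range 100 to 1197 bp), against 255 bp for gained peaks without a Seh1cKO call and 572 bp for peaks called in all 3 libraries. At matched control level the medians of the other classes were 272.6 bp and 395.0 bp. Within each bin of the control level the order was the same: from the lowest to the highest bin, members had median widths of 272, 326.5, 361, 415, 512.5 and 520 bp, gained peaks without a call 230, 261, 299, 343.5, 415.5 and 451 bp, and peaks called in all 3 libraries 316, 381, 445, 526, 611 and 750 bp. The share of gained peaks with a Seh1cKO call was 9.61% under 200 bp and 42.0% at 700 bp or more, and the part of width in the call was not tested. In Seh1cKO_D1 the median width was 205 bp, and the Seh1cKO peak was narrower than the member at 1536 of 2072 (74.1%), against 77.3% of peaks called in all 3 libraries. The median difference in width between the Seh1cKO and the control_D1 peak was −105 bp for members and −121 bp for peaks called in all 3.

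**Figure D2:**
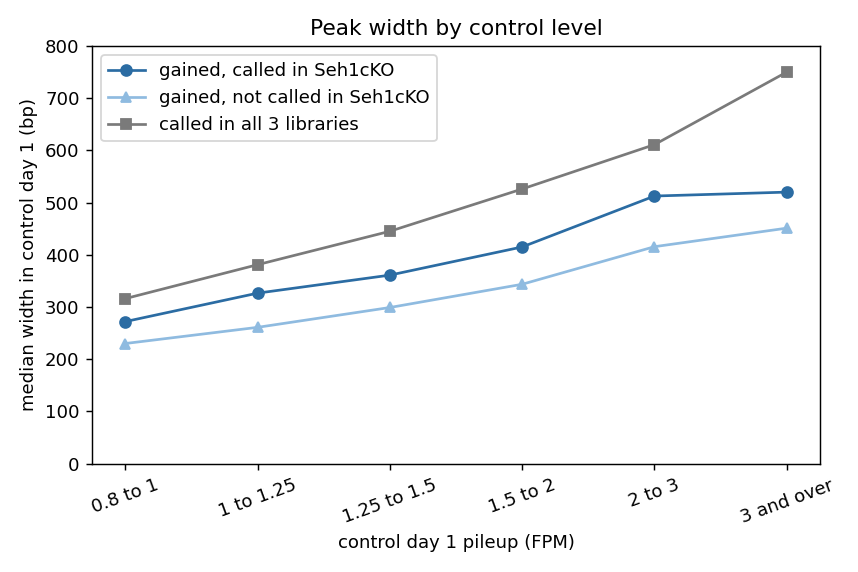
Median width in control_D1, in bp, of shared gained peaks, gained peaks without a Seh1cKO call and peaks called in all 3 libraries, by bin of control_D1 pileup in FPM. In the lowest bin the medians are 272, 230 and 316 bp, and the shared gained peaks lie between the other classes in all 6 bins.

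The widest member, 1197 bp, lay 664057 bp from Marcks, its nearest protein-coding gene, with 0.922 FPM in Seh1cKO_D1 and 2.19 in control_D1. The peak near Hdgfl1 followed with 1182 bp. The member of 1107 bp inside Sdk2, which encodes a cell adhesion protein, had nearly equal levels of 1.38 in Seh1cKO_D1 and 1.42 in control_D1, and that of 1003 bp at 27721 bp from Rrp1b had 1.47 and 1.70. The member of 981 bp inside Colec12, a scavenger receptor gene, had 0.738 and 2.96, and that of 978 bp at 27680 bp from Gjb6, a connexin gene of astrocytes, 0.830 and 1.42. The widest members thus held both near-equal and unequal levels.

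The share of gained peaks with a Seh1cKO call was higher at higher control levels. From the lowest to the highest bin it was 13.2%, 18.8%, 21.3%, 23.6%, 24.4% and 37.5% (27 of 72, exact 95% interval 26.4 to 49.7%). For control_D1 peaks that were also called in control_D0, of which 78.5% had a Seh1cKO call in all, the shares were 49.1%, 61.1%, 70.8%, 81.2%, 91.1% and 98.3%. At the floor itself 259 of 2442 gained peaks with 15 control fragments had a Seh1cKO call, with a median of 9 Seh1cKO fragments, and just outside it 265 of 3208 with 14 fragments had one, also with a median of 9. Median widths there were 245 bp inside and 251 bp outside.

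**Figure D3:**
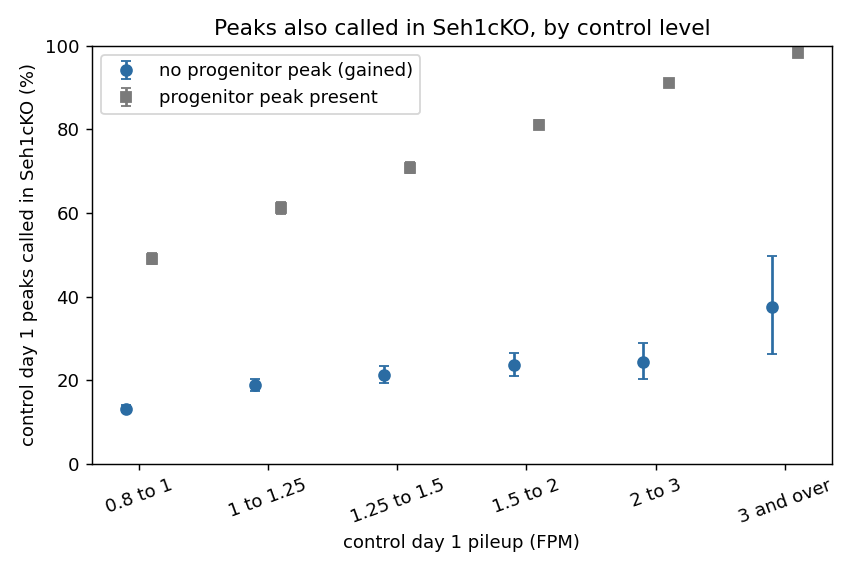
Percentage of autosomal control_D1 peaks that had a Seh1cKO_D1 call, by bin of control_D1 pileup in FPM, for gained peaks (circles) and for peaks also called in control_D0 (squares). Bars are exact 95% binomial intervals for counting error; the gained peaks go from 13.2% to 37.5% and the others from 49.1% to 98.3%.

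By position to protein-coding genes, 280 members (13.5%, exact 95% interval 12.1 to 15.1%) were found at an annotated gene end (1000 bp on either side), 940 (45.4%) elsewhere in a gene body, 545 (26.3%) between genes up to 100000 bp away and 307 (14.8%) farther out. The gene-end share was 9.82% (9.25 to 10.4%) for gained peaks without a Seh1cKO call and 36.3% for peaks called in all 3 libraries, and it was 10.1% and 22.4% when these were matched to the members on control level. The matched difference from gained peaks without a call, 3.43 percentage points, turned to −1.35 with a window of 5000 bp. Gene-body positions made up 52.7% of gained peaks without a call. Seen per position, 21.6% of 1295 gained gene-end peaks had a Seh1cKO call (19.4 to 24.0%), against 14.7% of 6391 in gene bodies (13.9 to 15.6%), 17.5% of 3116 at up to 100000 bp and 19.1% of 1605 beyond. This order did not hold at all control levels. At 0.8 to 1 FPM the share was 18.3% at gene ends and 12.9% beyond 100000 bp. At 1.5 to 2 FPM these shares were 28.0% (20.3 to 36.7%) and 35.5% (27.1 to 44.8%). At 2 to 3 FPM they were 20.5% (9.80 to 35.3%) and 37.9% (25.5 to 51.6%). Of the 153 bridged members 34.6% lay at gene ends, against 11.8% of the other 1919, and without the bridged members the matched difference from gained peaks without a call was 1.73 instead of 3.43 percentage points.

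**Figure D4:**
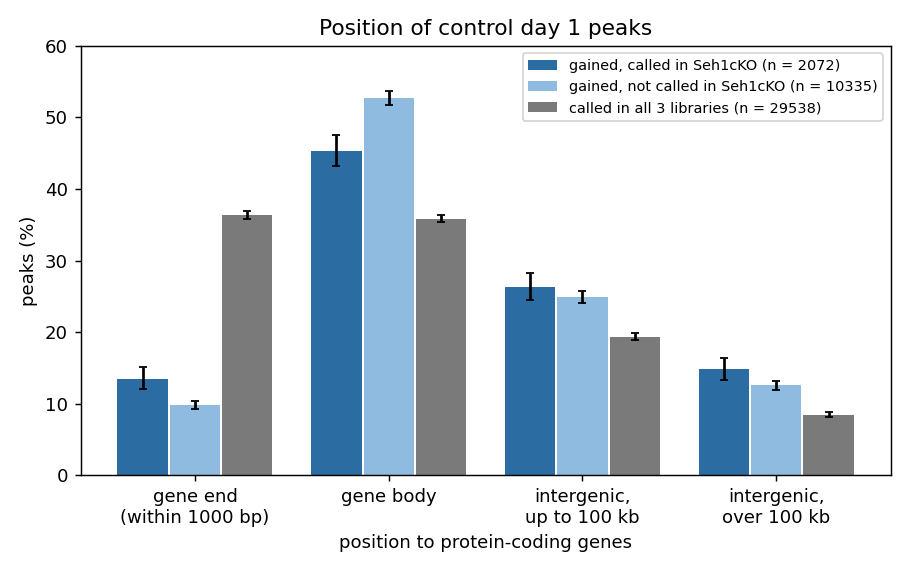
Percentage of shared gained peaks (2072), gained peaks without a Seh1cKO call (10335) and peaks called in all 3 libraries (29538) at 4 positions to protein-coding genes, with exact 95% binomial intervals for counting error. At gene ends the shares are 13.5%, 9.82% and 36.3%.

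With starts of the RefSeq promoter table in place of both gene ends, 289 of 2003 members lay within 1000 bp of a start (14.4%), against 9.44% of gained peaks without a call and 35.9% of peaks called in all 3. Chromosome 18 was not used in this count. A start was overlapped by 89 members (4.44%), against 1.23% and 29.4%. A control_D0 peak lay within 500 bp of 441 members (21.3%, 19.5 to 23.1%) and of 17.8% of gained peaks without a call (17.0 to 18.5%). All 153 bridged members had one within 500 bp, against 288 of the other 1919 (15.01%). Without the bridged members the share was thus lower, not higher, than that of gained peaks without a call. The median distance to the nearest control_D0 peak was 4059 bp for all members and 3564 bp for gained peaks without a call. The share of gained peaks with a call was 14.99% on chromosome 1 (12.76 to 17.46%), the lowest autosome, and 19.8% on chromosome 19 (15.64 to 24.55%), the highest. Both intervals include the 16.7% over all gained peaks. On the sex chromosomes the same rule gave 28 of 273.

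At gene ends the member highest in control_D1 was 688 bp from Josd2, a deubiquitinase gene, with 2.58 FPM in Seh1cKO_D1 (28 fragments) and 3.29 in control_D1 (60 fragments). The member over the Pqlc3 promoter printed above had 1.29 in Seh1cKO_D1 and 2.57 in control_D1, a ratio of 0.502 (0.255 to 0.927), and the one over the Gm40035 promoter had 1.199 and 2.52, a ratio of 0.476 (0.236 to 0.896). The nearest control_D0 peaks of these lay 11127 and 20978 bp away, whereas those of the members at Josd2 and L3mbtl3 lay 307 and 329 bp away, and neither of these would be a member if no control_D0 peak were allowed within 500 bp. At Pias4, which encodes a SUMO ligase, the levels were 1.38 in Seh1cKO_D1 and 2.41 in control_D1, at Lyrm7, a factor of mitochondrial complex assembly, 0.738 and 2.25, and at Ttc21b, a gene of transport in cilia, 1.11 and 2.25. At L3mbtl3, which encodes a reader of methylated lysine, they were 2.03 and 2.19, and at Polr3a, which encodes the large subunit of RNA polymerase III, 1.199 and 2.19. All 8 were lower in Seh1cKO_D1, with ratios from 0.329 at Lyrm7 to 0.926 at L3mbtl3. The intervals for counting error at Josd2, L3mbtl3, Pias4 and Polr3a included 1, while those at Lyrm7 and Ttc21b, like those at Pqlc3 and Gm40035, ended below it. Only the interval at Lyrm7 lay wholly below 0.873, the median ratio of peaks called in all 3 libraries. These 8 were ranked by the control level, along which the members' ratios fell, so their values carry no test.

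The members were spread over many genes. Of 20661 autosomal protein-coding genes, 1525 (7.38%) had a member in the gene or within 10000 bp, against 6637 (32.1%) with any gained peak, and 1375 of the 1525 had only 1. Crip2, which encodes a LIM domain protein, had 5 members among 5 gained peaks in its locus, and the neighbouring Mta1, a subunit gene of the NuRD complex, and Gm30599 shared 4 of them each. Over the end of Crip2 the Seh1cKO peak was bridged, at 3.32 FPM in Seh1cKO_D1 and 1.15 in control_D1. A pair of further members there shared a single Seh1cKO peak at 2.12 FPM, with 1.53 and 1.42 in control_D1. Ghr, which encodes the growth hormone receptor, had 4 members among 4 gained peaks, with 0.830, 1.11, 1.66 and 2.21 in Seh1cKO_D1 beside 1.92, 1.205, 1.37 and 1.37 in control_D1. Fhit had 4 members of 10 gained peaks and Nav2 4 of 17, in genes of 1611970 and 651028 bp, with Seh1cKO levels from 0.645 to 1.01 in both genes and control_D1 levels from 0.931 to 1.205 in Fhit and from 0.821 to 1.59 in Nav2. Ahdc1 had 3 members of 7 gained peaks and Btbd11 3 of 4, of which 1 had a bridged Seh1cKO peak. In all, 17 genes tied at 3 members, and Ahdc1 and Btbd11 are named as the first in alphabetical order.

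For 11 gene lists the members were counted within each gene and 10000 bp on either side, to be read against 7.38% of genes and 16.7% of gained peaks. In the thyroid hormone list 3 of 19 genes had a member, and 4 of 24 gained peaks had a Seh1cKO call (16.7%, exact 95% interval 4.73 to 37.4%), which is the background share. In the list of lineage regulators 4 of 29 genes had one, with 5 of 52 gained peaks (9.62%, 3.20 to 21.0%), and in the myelin list 2 of 28 genes, with 2 of 31 (6.45%, 0.791 to 21.4%). In the progenitor list 5 of 30 genes had one, with 5 of 64 gained peaks (7.81%, 2.59 to 17.3%). All of these intervals include the background share.

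Among lineage regulators, the member 2341 bp from Olig2 had 1.75 FPM in Seh1cKO_D1 and 1.86 in control_D1, from a bridged peak. At Tcf4, an E-protein gene whose product pairs with Olig2, one member had 1.47 in Seh1cKO_D1 and 0.876 in control_D1 and another had 1.11 and 0.931. The member inside Nfia, a glial transcription factor gene, had 0.922 and 2.03, a ratio of 0.455 (0.202 to 0.933), and the one at Sox5, a repressor of differentiation, had 1.01 and 1.37. The Seh1cKO peak at Sox5 was bridged too, with its summit outside the member, and control_D0 peaks lay 10 bp from the member at Nfia and 176 and 317 bp from those at Tcf4. In the myelin list the member inside Nfasc, which encodes the adhesion protein neurofascin, had 1.66 and 1.04, and the one 4386 bp from Opalin, an oligodendrocyte membrane protein gene, had 0.922 and 0.876. In the progenitor list Cspg4, the gene of the NG2 proteoglycan, had 1.47 and 1.97. The members there at Ncan, another proteoglycan gene, Sema5a, a semaphorin gene, Pcdh15, a protocadherin gene, and Nxph1, a neurexophilin gene, had 0.922, 0.922, 0.738 and 1.38 in Seh1cKO_D1 beside 1.42, 1.59, 0.821 and 0.876 in control_D1, and the Seh1cKO peak at Nxph1 was bridged.

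**Figure D5:**
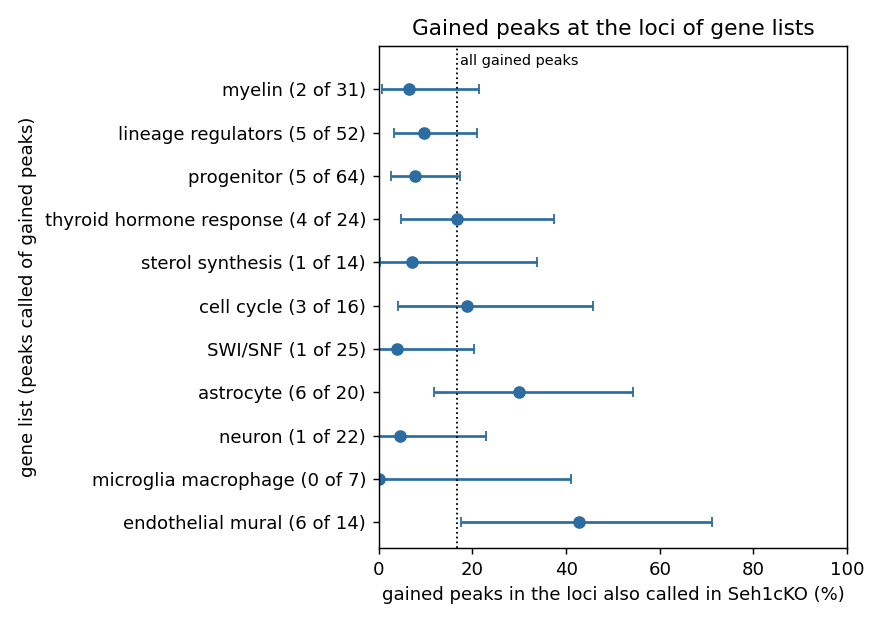
Percentage of the gained control_D1 peaks in the loci of 11 gene lists that had a Seh1cKO_D1 call, with exact 95% binomial intervals for counting error; the numbers give called peaks of gained peaks. The dotted line is the 16.7% over all gained peaks, and the interval of the endothelial and mural list (6 of 14) is the only one drawn wholly above it, which no longer holds without Cspg4 (5 of 12).

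Members were also counted in lists of other cell types that the cultures could hold. In the endothelial and mural list 6 of 24 genes had a member, with 6 of 14 gained peaks (42.9%, 17.7 to 71.1%), and in the astrocyte list 5 of 20 genes, with 6 of 20 (exact interval 11.9 to 54.3%). For gained peaks the interval of the first lies above 16.7% and that of the second includes it. For genes, the exact 95% intervals were 9.77 to 46.7% in the endothelial and mural list and 8.66 to 49.1% in the astrocyte list, and both lie above the background of 7.38%. However, 12 of 24 and 13 of 20 of these genes had any gained peak in the locus, against 32.1% of all genes. The background of 7.38% does not take this into account, and its part in the gene shares was not tested. Cspg4 stands on the progenitor and on the mural list. Without it, a setting chosen after the values were seen, the endothelial and mural list had 5 of 12 gained peaks (41.7%, 15.2 to 72.3%), whose interval includes 16.7%, and 5 of 23 genes (21.7%, 7.46 to 43.7%), and the progenitor list had 4 of 62 (6.45%, 1.79 to 15.7%), whose interval lies below it. In Seh1cKO_D1 and control_D1 the levels were 1.47 and 0.821 FPM at Emcn, the endomucin gene, 1.57 and 1.48 at Kdr, the receptor gene for vascular endothelial growth factor, 0.645 and 0.986 at Abcc9, 0.830 and 0.931 at Esam, and 1.11 and 1.59 at Tagln, a smooth muscle gene. At Gfap the member over the promoter printed above had 17 fragments (1.57 FPM) in Seh1cKO_D1 and 28 (1.53 FPM) in control_D1. The members at Ntsr2, Gjb6 and Cbs had 1.01, 0.645 and 1.29 in Seh1cKO_D1 and 1.53, 1.97 and 1.81 in control_D1, and both at Slc4a4, a bicarbonate transporter gene, had 0.738 in Seh1cKO_D1 and 0.931 and 0.821 in control_D1, the second from a bridged peak. The microglia and macrophage list had no member among 7 gained peaks, which allows a share of up to 41.0%. The part of other cells in the cultures was not tested.

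The remaining lists had few members. In the cell cycle list 3 of 29 genes had one, with 3 of 16 gained peaks: the bridged peak at Aurka, a mitotic kinase gene, at 5.90 FPM in Seh1cKO_D1 and 1.04 in control_D1, and peaks in the cyclin genes Ccne2, at 1.199 and 1.70, and Ccnd2, at 1.38 and 1.205. Hmgcs1, an enzyme gene of cholesterol synthesis, had 0.645 and 1.04 and was the only one of 23 sterol genes. Bcl7a was the only one of 25 genes of the SWI/SNF complexes, at 0.738 and 0.821, and Reln the only one of 22 neuronal genes, at the same levels. Hairpins of 3 miRNAs lay within 1000 bp of a member: Mir3089, with 1.75 in Seh1cKO_D1 and 2.19 in control_D1, Mir5100, with 3.41 and 0.931 from a bridged peak, and Mir7b, with 0.553 and 0.931.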

How the data were processed

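The tools Bowtie2, SAMtools and MACS2 and the build mm10 are named, per the submitters' processing notes. Peaks were called per library with MACS 2.1.2_dev on paired-end fragments, keeping duplicates and without a control library, at a q cutoff of 0.05 and a minimum length of 100 bp, per the file headers. The deposited tables give the pileup signal at the summit in fragments, the −log10 of the p-value and q-value, and the fold, a ratio of pileup to local background. The headers of both −log10 columns were damaged; the first was identified by recomputing the Poisson p, which came within 0.01 for 99.91% of Seh1cKO_D1 peaks, 99.96% in control_D1 and 99.94% in control_D0.

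Pileup was scaled to 1000000 fragments, with the totals in the file headers. Where 2 Seh1cKO peaks overlapped a member, the higher was used. Gene positions, without strand, came from RefSeq GRCm38.p6, so a gene-end window covers both ends. Shares have exact Clopper-Pearson intervals at 95% and ratios of pileups exact conditional binomial ones. They cover counting error only, since fragments are not independent molecules. Matching reweighted the other classes to the members' 6 pileup bins. Genes were named by a fixed rule: the 12 highest control_D1 levels, the 6 highest and 6 lowest ratios, the 6 widest, the 8 highest at gene ends, the 8 genes with most members (ties in alphabetical order), and every list gene with a member. Members at 3 FPM or more and Mir hairpins were added. The members, lists and rules were chosen with earlier results of these data known. Alternatives were other floors, overlaps, q limits, windows, scalings and list lengths. Scripts (Python 3.11.15, pandas 2.3.3, SciPy 1.17.1) were tested on simulated data.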

Additional observations from a re-analysis of the deposited data

How the results depend on the processing

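Of 126 values under alternatives, 50 stayed within their interval or within 1.5 times, 74 moved and 2 reversed; where they did, the cause was not tested unless the setting removes or adds peaks by its own construction. In this order, values are the number of members (2072), the share of gained peaks with a Seh1cKO call (16.7%), the median width (323.5 bp), the gene-end share (13.5%), the gene-body share (45.4%), the median log2 ratio of Seh1cKO_D1 to control_D1 (−0.25), the shares at least 1.5-fold lower (26.4%) and higher (6.18%), the matched gene-end difference from gained peaks without a call (3.43 points) and from peaks called in all 3 libraries (−8.87 points), and the list genes with a member (30). With a floor of 1 there were 1181 members, 20.9%, 370 bp, a log2 ratio of −0.49, 42.2% lower, 3.73% higher, −12.7 points and 19 list genes. With a floor of 1.2 there were 785 members, 22.4%, 395 bp, −0.65, 54.0% lower, 2.04% higher, 0.808 and −17.2 points and 16 list genes. With no control_D0 peak within 500 bp the width was 335 bp, the gene-end share 8.09%, the log2 ratio −0.35, 30.5% lower, 2.88% higher and the difference −15.1 points. With an overlap of at least 50% of the shorter peak the share was 14.6%, the width 338 bp, 5.15% higher and the difference 1.91 points. With Seh1cKO peaks limited to a −log10 q of 5 or more, there were 603 members, 4.86%, gene-end and gene-body shares of 17.1% and 40.6%, 7.63% lower, 20.4% higher, 6.71 points and 10 list genes, and the log2 ratio reversed to 0.20. With the same limit on control_D0 peaks there were 4203 members, 23.9%, 350 bp, a gene-end share of 15.7% and 66 list genes. With lists of equal length there were 3556 members, 25.9%, 366 bp, −0.35, 31.4% lower, 2.98% higher, 5.95 points and 49 list genes. Scaling to peaks called in all 3 libraries gave −0.052, 16.5% lower and 10.9% higher. A gene-end window of 500 bp gave shares of 10.2% and 47.9% and a difference of 5.08 points. One of 5000 bp gave 25.2% and 38.1%, a difference that reversed to −1.35 points from gained peaks without a call, and −6.99 points from peaks called in all 3. With all annotated genes the shares were 19.4% and 49.3%, with loci of 50000 bp on either side 58 list genes had a member, and unmatched the difference from peaks called in all 3 was −22.8 points. Alternatives chosen after seeing the data follow. With the Seh1cKO summit inside the peak the values were 13.8%, 343.5 bp, 11.6% at gene ends, −0.34, 29.6% lower, 3.62% higher and 1.00 point. Without bridged members they were 15.7%, 11.8% at gene ends, −0.33, 3.23% higher, and 1.73 and −10.7 points. No paired analysis was possible because each group has 1 library, and for the same reason no library could be left out. Depth limits the Seh1cKO calls: the lowest had 6 fragments, and weaker sites there carry no call.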
